A study of Mus musculus with 1 sample.

Results

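The 30 genes described here encode proteins of the meiotic chromosome axis and synaptonemal complex, the meiotic cohesins, the machinery of meiotic recombination, and a pair of factors that control meiotic entry. They were taken by symbol from a fixed list, with at least 1 UMI in the count matrix as the condition, and all 30 of 30 listed symbols met it, out of 18722 genes with a UMI and 27998 listed. A UMI (unique molecular identifier) stands for 1 captured mRNA molecule, read near the 3′ end of the transcript. The counts came from 1 library of wild-type (Zscan2+/+) testis cells of C57BL/6 mice at postnatal day 8, without treatment. Cells had been enriched with magnetic beads for THY1, a surface antigen of undifferentiated spermatogonia, and a small number of unselected testis cells had been added back. Equal cell numbers from 3 mice were pooled, so single mice could not be told apart and no replicate error can be given. Intervals are exact 95% Poisson or binomial intervals that cover counting error only, and no p-value was computed. The library from Zscan2-/- mice of the same study was not analysed here.

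At meiotic entry a germ cell replaces part of its mitotic cohesin with meiosis-specific subunits, and the chromosomes assemble a protein axis along their length. SPO11 and its partners then make programmed DNA breaks, which the recombinase DMC1 and its helpers repair on the homologous chromosome while the synaptonemal complex zips the homologues together. Spermatogonia are still mitotic: the undifferentiated cells give rise to differentiating cells that carry the receptor KIT and, under retinoic acid, STRA8, a protein needed for meiotic initiation. The question addressed was which of these meiotic transcripts are already present in undifferentiated spermatogonia, and which are higher in the cells with Kit and Stra8 or in those with Ly6k and Esx1.

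Of 970 barcodes, 920 cells were kept, and 324 of these were germ cells by a fixed marker list. The 30 genes were taken out of the variable genes before clustering, so that they did not place the cells, although genes that vary with them did. Undifferentiated cells fell into an SSC-like cluster of 124 cells, led by Nefm, Lhx1, Dusp6, Bcl6b and Etv5, and a cluster of 67 cells led by hemoglobin genes, Ddit4 and Upp1, called Ddit4-Upp1 here. The latter scored highest on the list of progenitor markers, of which only Upp1 was among its leading genes. Of the 6 markers of that list, 3 were at least 2-fold higher there than in SSC-like cells and 0 lower. Hemoglobin genes no longer led such a cluster once the most hemoglobin-rich germ cell was left out. The Kit-Stra8 cluster held 101 cells and the Ly6k-Esx1 cluster 32. Both names rest on the 2 genes they contain. The summed UMIs were 3866956 in the 191 undifferentiated cells, 1281933 in the Kit-Stra8 cells, 406181 in the Ly6k-Esx1 cells and 5358932 in the 596 somatic cells. Median depth per cell was 20139, 8942, 12208 and 8193.5 UMIs in the same order. At a finer resolution the Kit-Stra8 cluster separated into 50 deep cells with a median of 20653.5 UMIs and a low-RNA cluster, with a median of 4103 UMIs, which took 44 of its cells. Levels are given as CPM, UMIs per 1000000 UMIs of the summed cells, and are compared within a gene. Stra8 was at a similar level in the 2 named clusters, 884.6 CPM in Kit-Stra8 and 999.6 CPM in Ly6k-Esx1 cells. Kit was 99.8 and 39.4 CPM. Of the 101 Kit-Stra8 cells, 52 held no Kit UMI and 15 held neither Kit nor Stra8. Both clusters thus held Stra8 transcripts, and they did not divide cells with Stra8 from cells without it. Stra8 was uneven within the Ly6k-Esx1 cluster, at 2541 CPM in 9 cells described below and 538 CPM in the other 23. The part of Stra8 in differences between the clusters was not tested. The 52 Kit-Stra8 cells without a Kit UMI had a median depth of 4119 UMIs, against 20610 UMIs in those with one. The part of depth in a missing Kit UMI was not tested. Summed Sertoli marker levels were 29.7, 35.9 and 19.7 CPM in the undifferentiated, Kit-Stra8 and Ly6k-Esx1 cells against 1272 CPM in somatic cells, and the low meiotic counts of somatic cells serve as the background below.

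Meiotic transcripts as a whole were present in undifferentiated spermatogonia and stood higher in both later groups. The 30 genes together gave 1506 CPM in undifferentiated cells, 2308 CPM in Kit-Stra8 cells, 4252 CPM in Ly6k-Esx1 cells and 141 CPM in somatic cells. Per cell, their UMIs per 10000 ran from 0.82 over a median of 14.3 to 28.9 in undifferentiated cells. The Kit-Stra8 cells spanned 6.92, 22.3 and 42.3, and the Ly6k-Esx1 cells 18.6, 36.0 and 144, for the lowest, median and highest cell. The groups overlapped cell by cell, but the median of the Ly6k-Esx1 cells lay above the highest undifferentiated cell. After each cell was thinned to 5000 UMIs, which left out 33 of the 101 Kit-Stra8 cells, 11 undifferentiated cells and 1 Ly6k-Esx1 cell, a median of 5 of the 30 genes was detected per undifferentiated cell, 7 per Kit-Stra8 cell, 10 per Ly6k-Esx1 cell and 0 per somatic cell. A difference in these sums cannot be told apart from a change in other RNA of the cell.

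**Figure D1:**
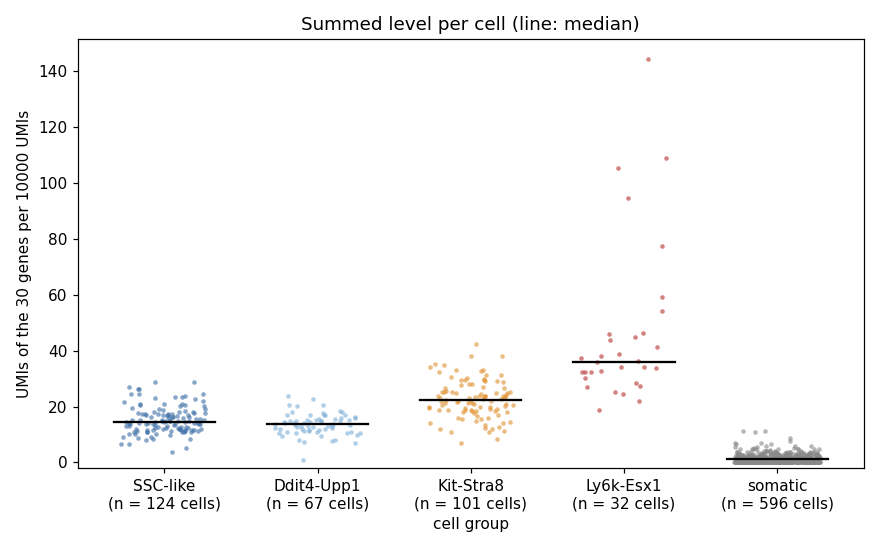
Summed UMIs of the 30 genes per 10000 UMIs of each cell (vertical axis) in the SSC-like, Ddit4-Upp1, Kit-Stra8, Ly6k-Esx1 and somatic cells (horizontal axis). Each point is 1 cell and each line a group's median, which was 36.0 in Ly6k-Esx1 cells, where 5 cells stand at 77.2 or more and the highest reaches 144.

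For presence in undifferentiated cells, a gene needed at least 10 UMIs there and a lower interval bound above the upper bound in somatic cells. Of the 30 genes, 25 had 10 UMIs and 22 passed, while 40.1% of all 11159 genes with 10 UMIs did. By the measure of size used for all comparisons, a ratio of 2-fold or more among genes with at least 20 UMIs in both groups together, 20 of 22 meiotic genes tested were higher in undifferentiated than in somatic cells and 0 were lower, against 23.4% and 29.7% of all genes tested. Ythdc2 and Mlh3 were the exceptions, with log2 ratios of 0.58 (interval -0.09 to 1.24) and 0.98 (0.35 to 1.62). Between undifferentiated and Kit-Stra8 cells, 3 of 23 genes tested were higher in Kit-Stra8 cells (Hormad2, Mei1 and Mei4) and 0 lower, against 6.92% and 9.53% of all genes. The median log2 ratio of the 23 was 0.67 and that of all genes tested 0.08. Between undifferentiated and Ly6k-Esx1 cells, 16 of 24 genes tested were higher in Ly6k-Esx1 cells and 1 lower, against 15.2% and 17.1% of all genes, with a median log2 ratio of 1.39 against 0.04. Set directly against Kit-Stra8 cells, 10 of 23 genes tested were higher in Ly6k-Esx1 cells and 0 lower, against 10.1% and 13.8% of all genes. Intervals of the log2 ratio to undifferentiated cells lay above 0 for 14 of the 23 genes in Kit-Stra8 cells. In Ly6k-Esx1 cells they did so for 20 of the 24, and in neither comparison did any lie below 0. No share of all genes is given for these interval counts. The comparisons share cell groups, so they are not independent.

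**Figure D2:**
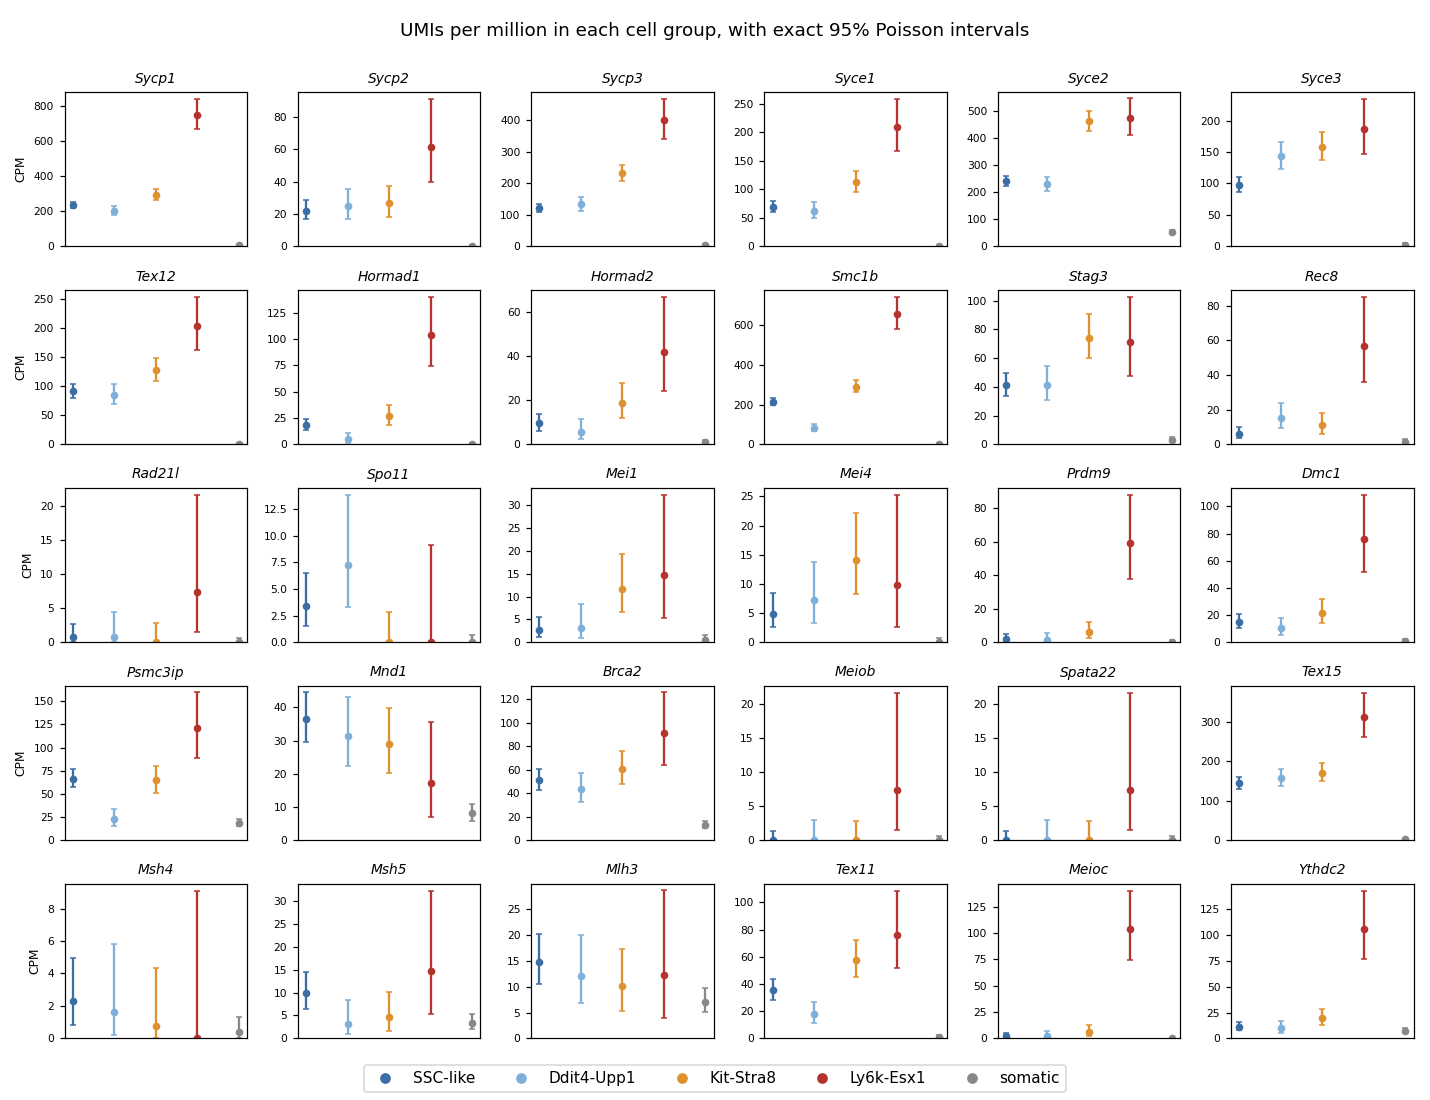
CPM of each of the 30 genes (vertical axes, linear, each from 0) in the SSC-like, Ddit4-Upp1, Kit-Stra8, Ly6k-Esx1 and somatic cells, with exact 95% Poisson intervals of the summed UMIs as bars. Sycp1, Smc1b, Hormad1, Rec8, Prdm9, Dmc1, Meioc and Ythdc2 stand highest in Ly6k-Esx1 cells with intervals clear of the other groups. The same holds by a smaller margin for Sycp2, Sycp3, Syce1, Tex12, Psmc3ip and Tex15. Syce2 and Stag3 are level between Kit-Stra8 and Ly6k-Esx1 cells.

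The structural genes of the synaptonemal complex and axis were detected in most undifferentiated cells or at levels far above somatic cells. Sycp1 encodes the transverse filament that bridges the homologues. It had 864 UMIs in 179 of the 191 undifferentiated cells, a level of 223 CPM (209 to 239), against 293 CPM (264 to 324) in Kit-Stra8 cells, 748 CPM (667 to 837) in Ly6k-Esx1 cells and 6.16 CPM in somatic cells. All 32 Ly6k-Esx1 cells held a Sycp1 UMI, and its log2 ratio to undifferentiated cells was 1.74 (1.55 to 1.93). The central element genes Syce1, Syce2, Syce3 and Tex12 code for proteins that hold the filaments together at the midline. Syce1 measured 67.0, 112 and 209 CPM and Tex12 89.7, 127 and 204 CPM in undifferentiated, Kit-Stra8 and Ly6k-Esx1 cells, higher in each group than in the one named before it.

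Syce2 behaved otherwise. Its level was 237 CPM (222 to 253) in undifferentiated cells, 460 CPM (424 to 499) in Kit-Stra8 cells and 473 CPM (408 to 544) in Ly6k-Esx1 cells, so that nearly the whole difference already separated undifferentiated from Kit-Stra8 cells. The log2 ratios to undifferentiated cells were 0.96 (0.81 to 1.11) and 1.0 (0.76 to 1.22), both just under 2-fold. The log2 ratio of Ly6k-Esx1 to Kit-Stra8 cells was 0.04, with an interval from -0.20 to 0.28. Its somatic level was 53.0 CPM. Syce3 had the smallest log2 ratio of Ly6k-Esx1 to undifferentiated cells in this group of genes, 0.73, with levels of 113, 158 and 187 CPM.

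The axis proteins SYCP2 and SYCP3 form the lateral elements, and HORMAD1 and HORMAD2 mark axes that have not yet synapsed. Sycp3 measured 125 CPM (114 to 137) in undifferentiated cells, 232 CPM (206 to 260) in Kit-Stra8 cells and 401 CPM (342 to 468) in Ly6k-Esx1 cells. Sycp2 stood at 23.0 and 26.5 CPM in the first 2 groups and at 61.5 CPM (39.8 to 90.9) in Ly6k-Esx1 cells. Hormad1 measured 14 CPM (10.5 to 18.2) in undifferentiated cells and 103 CPM (74.5 to 140) in Ly6k-Esx1 cells, a log2 ratio of 2.89 (2.27 to 3.50). Hormad2, at 8.28, 18.7 and 41.9 CPM, was the only one of the genes tested in both later groups to pass 2-fold over undifferentiated cells in both; Mei1 had too few UMIs for the second comparison. The Kit-Stra8 step of Hormad2 rested on 24 UMIs in 20 cells, and its log2 ratio was 1.18 (0.35 to 1.99). Germ cells were also grouped cell by cell, with limits of 3 Kit plus Stra8 and 2 Ly6k plus Esx1 UMIs per 10000. In 86 cells past only the first limit Hormad2 was 12.4 CPM (7.08 to 20.1), against 10.4 CPM (7.36 to 14.2) in 197 cells past neither. The 16 cells past only the second limit held 1 Hormad2 UMI, and the 25 past both stood at 66.5 CPM (38.7 to 106). The Hormad2 steps therefore depended on how cells were grouped.

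Of the meiotic cohesin genes, Smc1b and Rec8 were at least 2-fold higher in Ly6k-Esx1 than in undifferentiated cells, and Stag3 was higher by less. Smc1b, the meiotic partner of SMC3, measured 174 CPM (161 to 187), 291 CPM (262 to 322) and 657 CPM (581 to 741) in undifferentiated, Kit-Stra8 and Ly6k-Esx1 cells, and every one of the 32 Ly6k-Esx1 cells held a UMI of it. Rec8, the kleisin that keeps sister chromatids joined until the second meiotic division, was 9.05 CPM, 10.9 CPM and 56.6 CPM (35.9 to 85.0). Its log2 ratio to undifferentiated cells was 0.27 (-0.74 to 1.2) in Kit-Stra8 and 2.65 (1.82 to 3.45) in Ly6k-Esx1 cells. In the cell by cell grouping Rec8 was 21.7 CPM (14.4 to 31.3) in the 86 cells past only the Kit plus Stra8 limit. The 197 cells past neither limit gave 5.58 CPM (3.45 to 8.52). Whether Rec8 was higher with Kit and Stra8 therefore depended on how cells were grouped. Stag3, the meiotic stromal antigen subunit, was 41.1 CPM in undifferentiated cells, 74.1 CPM (60.0 to 90.6) in Kit-Stra8 cells and 71.4 CPM (47.8 to 103) in Ly6k-Esx1 cells. Its log2 ratio between the 2 later groups was -0.05 (-0.71 to 0.56). Rad21l, the other meiotic kleisin, had 3 UMIs in undifferentiated cells, 0 in Kit-Stra8 cells and 3 in 2 Ly6k-Esx1 cells, too few for a ratio.

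Genes for making the DNA breaks gave few UMIs and shared no single order. Spo11, the nuclease that cuts, had 18 UMIs in 16 undifferentiated cells, 9 of them in each undifferentiated cluster, and none in the Kit-Stra8, Ly6k-Esx1 or somatic cells. Its level was 4.65 CPM (2.76 to 7.36) in undifferentiated cells, and the interval for 0 UMIs in Kit-Stra8 cells reached 2.88 CPM, so the 2 intervals overlapped slightly. In the smaller Ly6k-Esx1 group the interval reached 9.08 CPM, so that a level as in undifferentiated cells was not detectable there. The absence also depended on how cells were grouped. When germ cells were instead chosen by Kit plus Stra8 UMIs alone, without the Ly6k plus Esx1 limit being passed, 86 cells held 3 Spo11 UMIs, at 2.32 CPM. Mei1 and Mei4, both needed for break formation, stood at 2.84 and 5.69 CPM in undifferentiated cells and at 11.7 CPM (6.55 to 19.3) and 14 CPM (8.32 to 22.2) in Kit-Stra8 cells. All 15 Mei1 UMIs of the Kit-Stra8 cells fell in 11 cells, and the low-RNA cluster had none. In Ly6k-Esx1 cells Mei1 had 6 UMIs, at 14.8 CPM, and Mei4 had 4 UMIs, at 9.85 CPM. Prdm9, the methyltransferase that places the breaks at hotspots, followed another course. It had 8 UMIs in undifferentiated cells, 8 in Kit-Stra8 cells and 24 in 16 of the 32 Ly6k-Esx1 cells, or 2.07, 6.24 and 59.1 CPM (37.9 to 87.9). Its log2 ratio of Ly6k-Esx1 to Kit-Stra8 cells was 3.24 (2.04 to 4.61).

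Of the strand exchange genes, Dmc1, Psmc3ip and Tex15 were at least 2-fold higher in Ly6k-Esx1 than in undifferentiated cells. Dmc1, the meiotic recombinase, measured 13.7 CPM (10.3 to 17.9), 21.8 CPM (14.5 to 31.6) and 76.3 CPM (51.9 to 108), with a log2 ratio of Ly6k-Esx1 to undifferentiated cells of 2.48 (1.79 to 3.14). Psmc3ip and Mnd1 encode the subunits of the HOP2-MND1 complex, which helps DMC1 invade the homologue, and only the first of them was higher in Ly6k-Esx1 cells. Psmc3ip was 52.8, 64.7 and 121 CPM (89.2 to 159) in undifferentiated, Kit-Stra8 and Ly6k-Esx1 cells. Mnd1 was 34.9, 28.9 and 17.2 CPM (6.93 to 35.5), the single gene of the 30 below the 2-fold limit in Ly6k-Esx1 cells, at a log2 ratio of -1.02. That value rested on 7 UMIs over the whole cluster, its interval of -2.36 to 0.06 included no difference, and the share of thinned cells with a Mnd1 UMI was 15.0% in undifferentiated and 12.9% (3.63 to 29.8) in Ly6k-Esx1 cells.

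Brca2, which loads the recombinases onto DNA in mitotic and meiotic cells alike, was 48.6, 60.8 and 91.1 CPM against 13.1 CPM in somatic cells. Tex15, needed for recombination and for transposon silencing in male germ cells, was 149 CPM (137 to 161), 171 CPM (149 to 195) and 313 CPM (261 to 372). Meiob and Spata22, which work together on single-stranded DNA after the breaks are made, had 0 UMIs in the 191 undifferentiated and 101 Kit-Stra8 cells. Each had 3 UMIs in the Ly6k-Esx1 cells, those of Meiob in 1 cell and those of Spata22 in 2. Spata22 shares exons on the same strand with another annotated gene, so its few counts are uncertain.

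Crossover genes had the smallest median log2 ratio of Ly6k-Esx1 to undifferentiated cells of the 6 roles, 0.93 over 3 genes tested. Tex11, an X-linked gene that promotes synapsis and crossovers, was 29.7 CPM (24.6 to 35.7), 57.7 CPM (45.3 to 72.5) and 76.3 CPM (51.9 to 108) in undifferentiated, Kit-Stra8 and Ly6k-Esx1 cells. Mlh3, a mismatch-repair protein that resolves crossovers, stood at 14, 10.1 and 12.3 CPM, with a somatic level of 7.09 CPM. Msh4 and Msh5 form the complex that stabilises recombination intermediates. Msh5 had 7.76, 4.68 and 14.8 CPM, the last from 6 UMIs, and Msh4 had 8 UMIs in undifferentiated cells, 1 in Kit-Stra8 cells and 0 in Ly6k-Esx1 cells. No change of these latter 3 genes was detectable at this depth.

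The largest ratio was that of Meioc, a factor of meiotic entry. MEIOC and the RNA helicase YTHDC2 act together to clear mitotic transcripts and let the meiotic programme proceed. Meioc had 10 UMIs in 10 undifferentiated cells, 8 in 6 Kit-Stra8 cells and 42 in 19 of the 32 Ly6k-Esx1 cells, and none in somatic cells. Its levels of 2.59, 6.24 and 103 CPM (74.5 to 140) gave a log2 ratio of Ly6k-Esx1 to undifferentiated cells of 5.32 (4.30 to 6.48). After thinning, 48.4% of Ly6k-Esx1 cells (30.2 to 66.9) held a Meioc UMI, against 2.94% of Kit-Stra8 and 2.78% of undifferentiated cells, and 0 of 548 somatic cells. Ythdc2 was 10.9 CPM (7.83 to 14.7) in undifferentiated cells, near its somatic 7.28 CPM (5.18 to 9.95), then 19.5 CPM (12.6 to 28.8) and 106 CPM (76.6 to 143). Its log2 ratio of Ly6k-Esx1 to Kit-Stra8 cells was 2.44 (1.70 to 3.21). Ythdc2 was itself among the 10 leading genes of the Ly6k-Esx1 cluster.

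**Figure D3:**
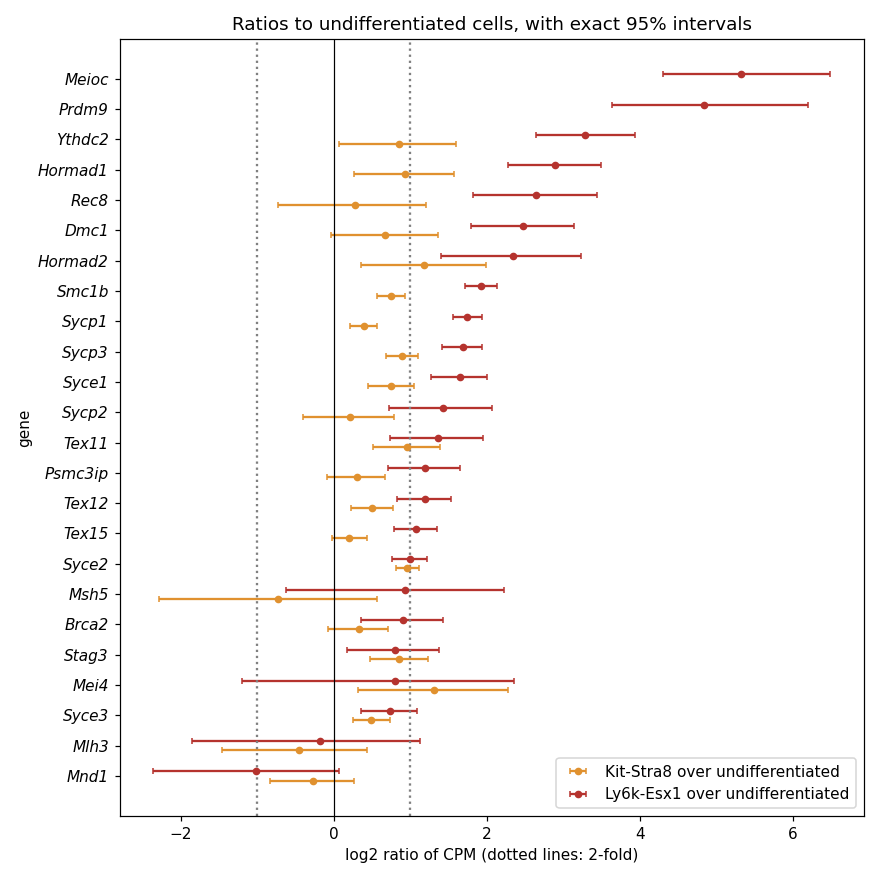
Log2 ratios of CPM (horizontal axis) of Kit-Stra8 cells and of Ly6k-Esx1 cells to undifferentiated cells for each gene with at least 20 UMIs (vertical axis), with exact 95% intervals and dotted lines at 2-fold. Meioc, at 5.32, and Prdm9, at 4.84, lead, and Mnd1, at -1.02, is the lowest Ly6k-Esx1 value.

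By these rules 14 genes were present in undifferentiated cells and higher still in Ly6k-Esx1 cells: Sycp1, Sycp2, Sycp3, Syce1, Tex12, Hormad1, Hormad2, Smc1b, Rec8, Dmc1, Psmc3ip, Tex15, Tex11 and Meioc. Prdm9 and Ythdc2 were higher in Ly6k-Esx1 cells without having passed as present. Ythdc2 was not absent from undifferentiated cells, with 42 UMIs in 36 of them, but its level there was near that of somatic cells. Another 7 genes were present and not called 2-fold higher in either later group, namely Syce2, Syce3, Stag3, Spo11, Mnd1, Brca2 and Mlh3. Of these, Spo11 had under 20 UMIs in both comparisons and was not tested in either. Meioc and Spo11 passed as present only with the 2 undifferentiated clusters summed, and in neither cluster alone. Mei4 was present and passed 2-fold only in Kit-Stra8 cells, where Mei1 also did. Prdm9 and Meioc, with log2 ratios of Kit-Stra8 to undifferentiated cells of 1.59 (-0.02 to 3.20) and 1.27 (-0.27 to 2.76), had under 20 UMIs in those groups together and were not counted. With 50 deep Kit-Stra8 cells in place of the 101, 5 of 23 genes tested passed 2-fold over undifferentiated cells, against 8.84% of all genes, Stag3 at 1.06 and Tex11 at 1.0 being added on the log2 scale. Against these deep cells, 11 of 22 genes tested were higher in Ly6k-Esx1 cells, against 9.91% of all genes.

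The number of genes that passed as present was 21 in SSC-like and 15 in Ddit4-Upp1 cells, the smaller group. No share of all genes is given for these counts. Msh5 passed in SSC-like cells but not with the 2 undifferentiated clusters summed. Of 22 genes tested between the 2 undifferentiated clusters, 1 was at least 2-fold higher in Ddit4-Upp1 than in SSC-like cells and 4 were lower, against 3.19% and 6.89% of all genes. Smc1b measured 216 CPM (198 to 234) in SSC-like and 84.0 CPM (68.7 to 102) in Ddit4-Upp1 cells, and Psmc3ip 66.6 CPM (57.1 to 77.2) and 23.4 CPM (15.7 to 33.7). Hormad1, at 18.3 and 4.85 CPM, and Msh5, at 9.89 and 3.23 CPM, differed the same way. Tex11 was 35.4 and 17.8 CPM, just short of 2-fold. Rec8 was the reverse, at 6.08 CPM (3.48 to 9.88) in SSC-like and 15.4 CPM (9.24 to 24.0) in Ddit4-Upp1 cells, and Syce3 was also higher in Ddit4-Upp1 cells by less than 2-fold, at 98.1 CPM (86.5 to 111) and 144 CPM (123 to 167). Intervals of the log2 ratio lay above 0 for 2 genes and below 0 for 6, with no share of all genes given for this count. In the same comparison 13 of 13 genes of G2 and mitosis and 9 of 20 S phase genes were at least 2-fold lower in Ddit4-Upp1 cells, and summed hemoglobin and other red blood cell markers were 8292 CPM there against 95.1 CPM. Without the most hemoglobin-rich germ cell, the corresponding cluster of 75 cells had no hemoglobin gene among its leading genes. The part of the cell cycle genes or of the red blood cell markers in these differences was not tested.

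The Ly6k-Esx1 cluster was not uniform. Its 5 cells richest in these transcripts, at 77.2 to 144 UMIs per 10000, all lacked Kit UMIs and held 18.7 to 39.1 Stra8 UMIs per 10000. A Kit UMI was absent from 19 of the 32 cells of the cluster, so its absence was not particular to the 5. Those 19 cells had a median depth of 10878 UMIs and the 13 with a Kit UMI 15309 UMIs. After the 5 cells were seen, the cluster was divided by Kit and Stra8 alone, into 9 cells with no Kit UMI and at least 10 Stra8 UMIs per 10000 and the other 23. The sums per cell were 32.3, 77.2 and 144 per 10000 for the lowest, median and highest of the 9 cells, and 18.6, 33.8 and 59.0 for the 23, so that the 2 sets overlapped. Median depth was 10878 and 13310 UMIs. The 25 Kit-Stra8 cells chosen by the same Kit and Stra8 limits, with a shallower median of 3814 UMIs, gave 11.2, 24.7 and 38.1 per 10000, which overlapped the lower part of the range of the 9 cells and not its upper part.

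**Figure D4:**
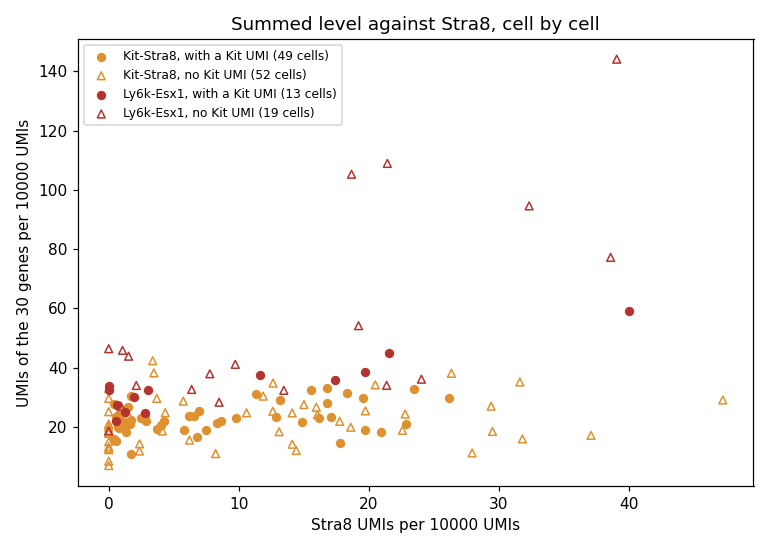
Summed UMIs of the 30 genes per 10000 (vertical axis) against Stra8 UMIs per 10000 (horizontal axis) for each Kit-Stra8 and Ly6k-Esx1 cell, filled where the cell holds a Kit UMI and open where it does not. The 5 highest cells, at 77.2 to 144, are Ly6k-Esx1 cells with Stra8 and without Kit, whereas no Kit-Stra8 cell exceeds 42.3 at any Stra8 level. A Kit UMI is absent from 19 of all 32 Ly6k-Esx1 cells.

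Within the cluster, 9 of 19 genes tested were at least 2-fold higher in the 9 Stra8-high cells and 0 lower, against 8.12% of all genes. Since the split followed a look at the sums, these values describe the cells and nothing more. Sycp3 had the largest log2 ratio of the genes tested, 2.26 (1.79 to 2.73), at 1025 CPM (830 to 1252) in the 9 cells and 214 CPM (166 to 272) in the 23, the latter near the 232 CPM of Kit-Stra8 cells. Hormad1 was 256 CPM (164 to 381) and 57.6 CPM (34.1 to 91.0), Syce1 427 CPM (305 to 582) and 144 CPM (105 to 193), and Tex12 406 CPM (287 to 557) and 144 CPM (105 to 193). Meioc was 203 CPM (122 to 317) in the 9 cells and already 73.6 CPM (46.7 to 110) in the 23, and Ythdc2 203 CPM (122 to 317) and 76.8 CPM (49.2 to 114). Rec8, at 53.4 CPM (17.3 to 125) and 57.6 CPM (34.1 to 91.0), and Psmc3ip, at 128 and 118 CPM, were alike in both sets within wide intervals. All 3 Rad21l UMIs and all 3 Meiob UMIs of the cluster fell in the 9 cells, the Meiob UMIs in the richest single cell, which had 21 of the 30 genes and no Kit UMI.

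Without the 9 cells, 13 in place of 16 genes were higher in Ly6k-Esx1 than in undifferentiated cells, against 14.9% of all genes. Since the split followed a look at the sums, lower counts without the 9 cells were built in and describe the cells only. Sycp3, Tex12 and Tex15 dropped out, at log2 ratios of 0.78 (0.39 to 1.15), 0.68 (0.20 to 1.13) and 0.87 (0.53 to 1.2). Mnd1, with 3 UMIs in the 23 cells and 4 in the 9, had a log2 ratio to undifferentiated cells of -1.86 (-4.16 to -0.28) in the 23 and 0.29 (-1.61 to 1.68) in the 9. Meioc, Prdm9, Ythdc2 and Rec8 remained at 4.83, 4.44, 2.82 and 2.67 on the log2 scale. Against Kit-Stra8 cells 7 of 22 genes tested were higher, in place of 10, against 8.95% of all genes, and Sycp3 had a log2 ratio of -0.11. Transcripts of pachytene and later stages were scarce in the whole cluster: Hist1h1t, Pgk2, Ldhc, Prm1, Adam3 and Spag6 were at 0 UMIs, and of the 10 listed genes only Hspa2 had more than 2, with 10 UMIs.

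Related genes outside the 30 had smaller median log2 ratios of Ly6k-Esx1 to undifferentiated cells. These were 0.14 for mitotic cohesin and its regulators, 0.67 for general recombination and repair and 0.65 for a wider list of factors linked to meiosis. Not all genes of that wider list, which includes Hells and Sun1, are confined to meiosis. Of 12 genes of the mitotic cohesin complex and its regulators, Esco2 was at least 2-fold higher in Ly6k-Esx1 than in undifferentiated cells (log2 ratio 1.37) and Rad21, the mitotic kleisin, lower (-1.22), while in Kit-Stra8 cells 0 were higher and 1, Nipbl, lower (-1.83). Among 26 tested genes of general recombination and repair, 4 were higher in Ly6k-Esx1 cells, namely Rad51d, Atm, Palb2 and Xrcc2 at log2 ratios of 1.6, 1.40, 1.25 and 1.0, and 1 was lower, Xrcc3. That count stands at the 15.2% of all genes higher in this comparison. None of the 26 passed 2-fold in Kit-Stra8 cells in either direction. Of 31 tested genes of the wider meiosis-linked list, 11 were higher in Ly6k-Esx1 cells and 3 lower, beside the same 15.2% higher and 17.1% lower of all genes. The largest ratios were those of Gm960 (3.25), M1ap (3.22), Ccdc155 (2.90) and Ccdc79 (2.84), of which M1ap acts in recombination, and Ccdc155 and Ccdc79 encode KASH5 and TERB1, which attach telomeres to the nuclear envelope. In Kit-Stra8 cells 4 of 28 passed upward, Meig1, M1ap, Ccdc155 and Ccdc36, beside 6.92% of all genes. Proliferation genes were higher in part as well: 6 of 20 S phase genes, led by Ccne2 (3.53) and Rrm2 (2.48), and 5 of 13 genes of G2 and mitosis were higher in Ly6k-Esx1 than in undifferentiated cells, against 15.2% of all genes, and their part in the meiotic differences was not tested.

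Promoters are shown for Meioc, Prdm9, Hormad1 and Sycp3, as genes higher in Ly6k-Esx1 cells, and for Mnd1, which was not. RefSeq gave a promoter for 25 of the 30 genes, 30 promoters in all, and the 250 bases before each start were searched on both strands for 3 words: CNCCTCAG, a word bound by STRA8, GCGGGAA, an E2F word, and CACGTG, an E-box. GCGGGAA stood in 10 of the 30 promoters, or 33.3%, against 3.82% of all 32851 promoters of the same length. CACGTG stood in 7, or 23.3%, against 6.02%, and CNCCTCAG in 4, or 13.3%, against 6.42%. Of the 15 promoters of genes at least 2-fold higher in Ly6k-Esx1 cells, 7 held GCGGGAA, 5 CACGTG and 2 CNCCTCAG. The genes shown do not stand for the rest: Rec8, Dmc1, Psmc3ip, Sycp2 and Syce1, also higher there, held none of the 3 words. GCGGGAA also stood in promoters of Brca2, Msh5 and Syce2, which were not 2-fold higher. The promoters of the 30 genes had a median of 13 CpG pairs against 6 in all promoters, and 5 of the genes entered with more than 1 promoter. Meioc, Hormad1 and Sycp3 each held GCGGGAA, Hormad1 and Sycp3 each held 2 copies of CACGTG, 1 of the 2 listed Prdm9 promoters, the one shown, held CNCCTCAG on the strand of the gene overlapping GCGGGAA on the other strand, the second Prdm9 promoter held none of the 3 words, and Mnd1 held none of the 3 words. The sequences follow, 5′ to 3′ on the strand of the gene, mouse build GRCm38.p6, with words that match on either strand in capitals. The Meioc stretch lies inside the gene as annotated, which starts at 102663716. A match describes these letters and is not evidence of binding.
Meioc, chr11:102665335-102665584, plus strand: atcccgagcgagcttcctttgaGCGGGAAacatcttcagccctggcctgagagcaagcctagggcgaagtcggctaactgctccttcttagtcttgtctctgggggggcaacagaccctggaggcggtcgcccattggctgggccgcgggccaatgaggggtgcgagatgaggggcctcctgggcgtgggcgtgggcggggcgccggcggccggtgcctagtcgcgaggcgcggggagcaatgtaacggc
Prdm9, chr17:15564355-15564604, minus strand: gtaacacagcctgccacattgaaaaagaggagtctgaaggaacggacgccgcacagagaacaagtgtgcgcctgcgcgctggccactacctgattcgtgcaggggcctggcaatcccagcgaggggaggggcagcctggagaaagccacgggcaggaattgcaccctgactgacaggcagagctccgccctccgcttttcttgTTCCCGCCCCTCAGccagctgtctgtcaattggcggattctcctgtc
Hormad1, chr3:95559427-95559676, plus strand: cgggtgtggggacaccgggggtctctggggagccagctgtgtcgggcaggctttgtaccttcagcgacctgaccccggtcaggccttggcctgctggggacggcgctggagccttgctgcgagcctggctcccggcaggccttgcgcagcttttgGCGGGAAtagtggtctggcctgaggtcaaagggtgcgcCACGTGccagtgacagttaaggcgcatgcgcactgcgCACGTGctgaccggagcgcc
Sycp3, chr10:88459337-88459586, plus strand: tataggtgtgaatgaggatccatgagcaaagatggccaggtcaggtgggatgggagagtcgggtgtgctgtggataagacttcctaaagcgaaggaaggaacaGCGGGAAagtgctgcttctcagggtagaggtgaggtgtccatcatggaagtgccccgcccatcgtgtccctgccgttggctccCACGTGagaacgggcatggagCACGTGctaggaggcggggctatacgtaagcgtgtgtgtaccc
Mnd1, chr3:84155787-84156036, minus strand: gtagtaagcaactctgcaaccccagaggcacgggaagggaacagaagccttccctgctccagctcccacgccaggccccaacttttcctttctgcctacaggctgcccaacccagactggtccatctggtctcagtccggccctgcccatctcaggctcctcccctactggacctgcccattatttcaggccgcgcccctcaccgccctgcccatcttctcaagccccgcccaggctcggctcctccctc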

How the data were processed

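Per the labels and the study's methods, the authors made the deposited UMI count matrix with Cell Ranger 2.1.0 on mm10 from 1 Chromium v2 library of 3 pooled mice. The matrix held raw counts of 27998 genes in 970 barcodes, 11358045 UMIs in all and 2655 to 44915 per barcode, and all barcodes were distinct. Barcodes with under 500 genes (10), with 10% or more mitochondrial UMIs (36) or called as doublets by Scrublet in scanpy 1.11.5 (4) were removed. Clustering used Seurat 5.3.0 in R 4.3.3 with 14 components and resolution 0.5, first on all cells and then on germ cells. Clusters were named by the highest mean difference in log-normalised expression of fixed marker lists. Counts were summed per group, with exact intervals from scipy 1.17.1. Ratios carry an exact conditional binomial interval. Thinning drew 5000 UMIs per cell with seed 1. With 1 library no test across samples was possible, since cells are not replicates.

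All 30 genes are named. From each other list, counts and at most 4 genes past 2-fold with large ratios are given. The genes and lists were chosen with earlier results of these data known. A simulation on 9801 genes with 200 changed 4-fold between Ly6k-Esx1 and undifferentiated cells recovered 89.0% of them at 2-fold and called 9.49% of unchanged genes. For the Kit-Stra8 comparison, with 10204 genes, the values were 97.5% and 2.97%. The simulated counts were Poisson draws without variation between cells or mice, so these shares cover counting error only. The changed genes were drawn among those with at least 20 UMIs in undifferentiated cells. The recovery therefore does not cover scarcer genes such as Prdm9, Meioc and Mei1. Promoter sequences came from RefSeq, build GRCm38.p6. The alternatives were 18 planned and 3 chosen after seeing the data.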

Additional observations from a re-analysis of the deposited data

How the results depend on the processing

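The counts of genes at least 2-fold higher were recomputed under 18 planned and 3 added alternatives. The 16 genes higher in Ly6k-Esx1 than in undifferentiated cells moved by over 1.5 times only with a mitochondrial limit of 5%. That limit left 442 cells with germ clusters of 28, 25, 9, 3 and 2 cells, and counts of 3 (Ly6k-Esx1 over undifferentiated), 0 (Kit-Stra8 over undifferentiated), 0 (Ly6k-Esx1 over Kit-Stra8), 8 (undifferentiated over somatic) and 2 (Ddit4-Upp1 over SSC-like). It also turned the log2 ratio to undifferentiated cells of Sycp3 to -0.052, Tex12 to -0.035 and Mnd1 to 0.052, and the ratio to Kit-Stra8 cells of Sycp2 to -0.27 and Meioc to -0.53. The 25 cells classed as Ly6k-Esx1 under that limit had neither Ly6k nor Esx1 among their leading genes. Their score on that marker pair was 0.46, against 1.28 in the main setting, so these ratios need not compare the same kind of cells. The median mitochondrial share of the germ cells was 6.67%.

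The 3 genes higher in Kit-Stra8 cells became 5 at resolution 0.8, at resolution 1.2, with the mean over cells and with a minimum of 10 UMIs, 12 at 1.5-fold, and 1 at 3-fold and with a minimum of 50 UMIs. The 10 genes higher in Ly6k-Esx1 than in Kit-Stra8 cells became 6 at 3-fold. The 1 gene higher in Ddit4-Upp1 than in SSC-like cells became 2 with at least 1000 genes per cell, with 20 components, without the most hemoglobin-rich germ cell and with a minimum of 10 UMIs, 3 with germ cells chosen by a UMI of Ddx4 or Dazl, and 0 after thinning to 5000 UMIs, at 3-fold and with a minimum of 50 UMIs. Why a count moved was not tested, apart from the rules of size and minimum themselves. When only cells past both the Kit plus Stra8 limit and the Ly6k plus Esx1 limit were taken as Ly6k-Esx1 cells, 19 genes were higher than in undifferentiated cells. In the 25 cells past both limits the meiotic genes summed to 4765 CPM. The 16 cells past only the Ly6k plus Esx1 limit gave 2879 CPM, and the 197 past neither 1536 CPM. Hormad1 in those 16 cells was 20.8 CPM (6.75 to 48.5), near the 14.1 CPM (10.5 to 18.4) of cells past neither. Sycp1, at 544 CPM (455 to 646) against 226 CPM, and Meioc, at 54.0 against 2.66 CPM, were still higher there. No count of 2-fold genes is given for the 16 cells. Leaving out the single richest cell kept the counts at 16 and 10. For the counts under these alternatives, neither the number of genes tested nor the share of all genes is given. A larger count, such as 19 in place of 16, is therefore not by itself a stronger result for the meiotic genes.

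No paired analysis was possible because the counts come from a single pooled library. Leaving out a replicate could not be done for the same reason. Depth limits Rad21l, Meiob, Spata22, Msh4, Spo11, Mei1, Prdm9, Meioc, Msh5 and Mlh3, which had under 20 UMIs in 1 or more of the comparisons among the undifferentiated, Kit-Stra8 and Ly6k-Esx1 cells.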
